A study of Homo sapiens with 6 samples.

Results

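The genes described here are endoplasmic reticulum (ER) chaperones and targets of the stress transcription factor ATF4, measured in 3 human ovarian cancer cell lines. They were chosen as a list of 41 symbols, and a gene was taken where a probe set of the array carried its symbol. That gave 24 of the 41, among 14884 named genes in all: 9 of 19 in the ER set and 15 of 22 in the ATF4 set. All 24 passed the filter on low signal (a mean log2 signal of at least 5), as did 8620 named genes in total. The other 17 were not analysed here: in the ER set HSPA5 (BiP), HSP90B1, DNAJB9, DNAJB11, DNAJC3, the protein disulfide isomerases PDIA3, PDIA4 and PDIA6, HERPUD1 and EDEM1, and in the ATF4 set CEBPB, NUPR1, CHAC1, MTHFD2 and the amino acid carrier genes SLC7A11, SLC7A5 and SLC3A2.

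ES-2, OVCAR-3 and SKOV-3 cells were each transfected once with the microRNA miR-135a-3p and once with miR-blank, its control, which made 6 arrays with 1 array per line and transfection. The lines therefore serve as the 3 replicates of the transfection. All 6 samples were transfected cells, so none shows the lines untouched. The dose, the time of harvest and the kind of transfected molecule are not given in the sources used here. Values are normalised log2 signals, a step of 1 is 2-fold, and a difference is miR-135a-3p minus miR-blank within a line unless lines are named. Values given as 3 without line names keep the order ES-2, OVCAR-3, SKOV-3.

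The unfolded protein response is the set of pathways by which cells match the folding capacity of the ER to the load of new secretory proteins. The sensor ATF6, and IRE1 through splicing of XBP1 mRNA, raise the transcription of ER chaperones and of the machinery that degrades misfolded proteins. The third sensor, PERK, phosphorylates eIF2 alpha, as do kinases that sense amino acid lack, haem lack and double-stranded RNA. This lowers translation in general while the mRNA of ATF4 is translated more, and ATF4 then raises genes of amino acid synthesis, uptake and tRNA charging. ATF4 is thus controlled largely at translation and XBP1 at splicing, and an array of whole-transcript signals reads neither step.

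The transfected microRNA has the mature sequence below, with the seed (bases 2 to 8), the stretch that pairs with target mRNAs, in capitals. It lies at chr3:52294232-52294253 on the minus strand (GRCh38.p14, RefSeq).
hsa-miR-135a-3p: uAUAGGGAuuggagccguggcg

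Promoters are shown because they set the 2 groups of genes apart. Of the 24 genes, 22 had a promoter in the RefSeq table (250 bases before to 50 after a start, GRCh38.p14). Both strands were searched for the ER stress element ERSE (CCAAT and CCACG with 9 bases between), for ERSE-II (ATTGG and CCACG with 1 base between), for UPRE (TGACGTGG) and for the core of the amino acid response element CARE (TGATGNAA). ERSE or ERSE-II stood in 6 of 9 ER genes and in 0 of 13 ATF4 genes with a promoter. Among all 27305 genes with a promoter 0.161% held either, and among all 35116 promoters 0.131%. The following lines give these 6, read on the strand of the gene with the element in capitals. An element that runs on the other strand appears as its reverse complement, CGTGG first and then ATTGG (ERSE) or CCAAT (ERSE-II).
HYOU1, ERSE-II, chr11:119057206-119057455, minus strand: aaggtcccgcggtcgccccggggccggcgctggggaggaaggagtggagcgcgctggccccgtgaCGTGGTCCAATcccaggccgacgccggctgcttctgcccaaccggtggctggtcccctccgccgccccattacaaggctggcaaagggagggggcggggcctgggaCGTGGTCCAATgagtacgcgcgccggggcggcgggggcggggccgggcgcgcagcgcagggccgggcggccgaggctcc
SDF2L1, ERSE-II, chr22:21642089-21642148, plus strand: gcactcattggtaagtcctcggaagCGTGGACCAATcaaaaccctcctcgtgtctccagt
CRELD2, ERSE, chr22:49918533-49918592, plus strand: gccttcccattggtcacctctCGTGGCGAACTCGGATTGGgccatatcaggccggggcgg
CALR, ERSE, chr19:12938363-12938422, plus strand: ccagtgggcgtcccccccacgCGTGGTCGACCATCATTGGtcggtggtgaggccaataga
CANX, ERSE, chr5:179698772-179698801, plus strand: tcccggCCAATCTTCACACTCCACGaagaa
XBP1, ERSE, chr22:28800583-28800642, minus strand: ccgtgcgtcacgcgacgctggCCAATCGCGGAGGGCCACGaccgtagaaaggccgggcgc

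The HYOU1 promoter held ERSE-II in 2 copies, beginning 185 and 79 bases before the start. Its UPRE match, the only one among the 24 genes (0.927% of all genes and 0.729% of all promoters), began 188 bases before the start and overlapped the farther copy. The letters of CARE stood in 4 of 13 ATF4 genes and 0 of 9 ER genes, against 4.46% of all genes and 3.62% of all promoters. Genes with several promoters, such as CANX, ATF3 and ASNS, were searched in each. They are shown in the same way, with TTNCATCA where the match is on the other strand, and a match is a description of the letters, not of a bound site.
ATF3, CARE, chr1:212565190-212565249, plus strand: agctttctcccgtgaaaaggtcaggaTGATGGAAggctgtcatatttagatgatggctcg
ASNS, CARE, chr7:97872443-97872502, minus strand: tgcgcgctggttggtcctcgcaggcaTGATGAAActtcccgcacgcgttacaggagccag
AARS1, CARE, chr16:70289660-70289719, minus strand: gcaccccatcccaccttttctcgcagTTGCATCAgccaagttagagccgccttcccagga
GARS1, CARE, chr7:30594834-30594863, plus strand: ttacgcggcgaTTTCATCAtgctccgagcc

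The hairpin gene MIR135A1 read 12.57 for ES-2, 12.20 for OVCAR-3 and 11.58 for SKOV-3 after miR-135a-3p, against 1.75, 2.26 and 2.07 after miR-blank (mean difference 10.09 ± 0.67, SD, n = 3; limma adjusted p 4.83e-05). The SKOV-3 pair stood apart: the SD of the log2 differences over all genes tested was 0.48 there, against 0.30 in ES-2 and 0.30 in OVCAR-3, so a mean difference of a gene that turns its sign or moves by over 1.5 times without SKOV-3 is given without it too. Of 10 markers of Mullerian epithelium 8 were named, and their differences ran from −1.53 (KRT7) to 1.41 (MSLN) in SKOV-3, against −0.80 to 0.63 in ES-2 and −0.21 to 1.03 in OVCAR-3. Of 5 mesenchymal markers 4 were named, with VIM at line means of 10.79, 5.31 and 9.86, SNAI2 at a difference of 2.10 in SKOV-3 and FN1 at 2.22 in OVCAR-3. KRT18 had line means of 9.66 to 10.42, PAX8 8.46 in SKOV-3, 4.49 in ES-2 and 4.22 in OVCAR-3, and EPCAM 3.95 to 4.13 in the 3 lines. OVCAR-3 is usually described as positive for PAX8 and EPCAM, so its low signals for both go against its label. EPCAM was no higher in ES-2 or SKOV-3, so it does not set OVCAR-3 apart. In OVCAR-3 WT1, MSLN, KRT8, KRT19 and KRT7 had line means of 5.77, 5.32, 5.64, 4.95 and 4.34. The lines are called here as labelled. Whether the label or the probe sets lie behind the low PAX8 and EPCAM signals in OVCAR-3 was not tested. Of 6 leukocyte markers 3 were named. Summed on the linear scale, CD68, TYROBP and CD14 gave 1193, 211 and 1250 after miR-135a-3p, against 1404, 247 and 297 after miR-blank. The sum was higher after miR-135a-3p in SKOV-3 and lower in the other lines. It mostly followed CD68, which had the highest signal of the 3 on each array and differed by −0.25, −0.39 and 2.24. TYROBP differed by −0.05, 0.45 and 0.70, and CD14, the monocyte marker, by 0.13, 0.08 and 0.08. In SKOV-3 CD14 read 3.54 after miR-135a-3p and 3.46 after miR-blank. The part of these markers in the results was not tested.

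**Figure D1:**
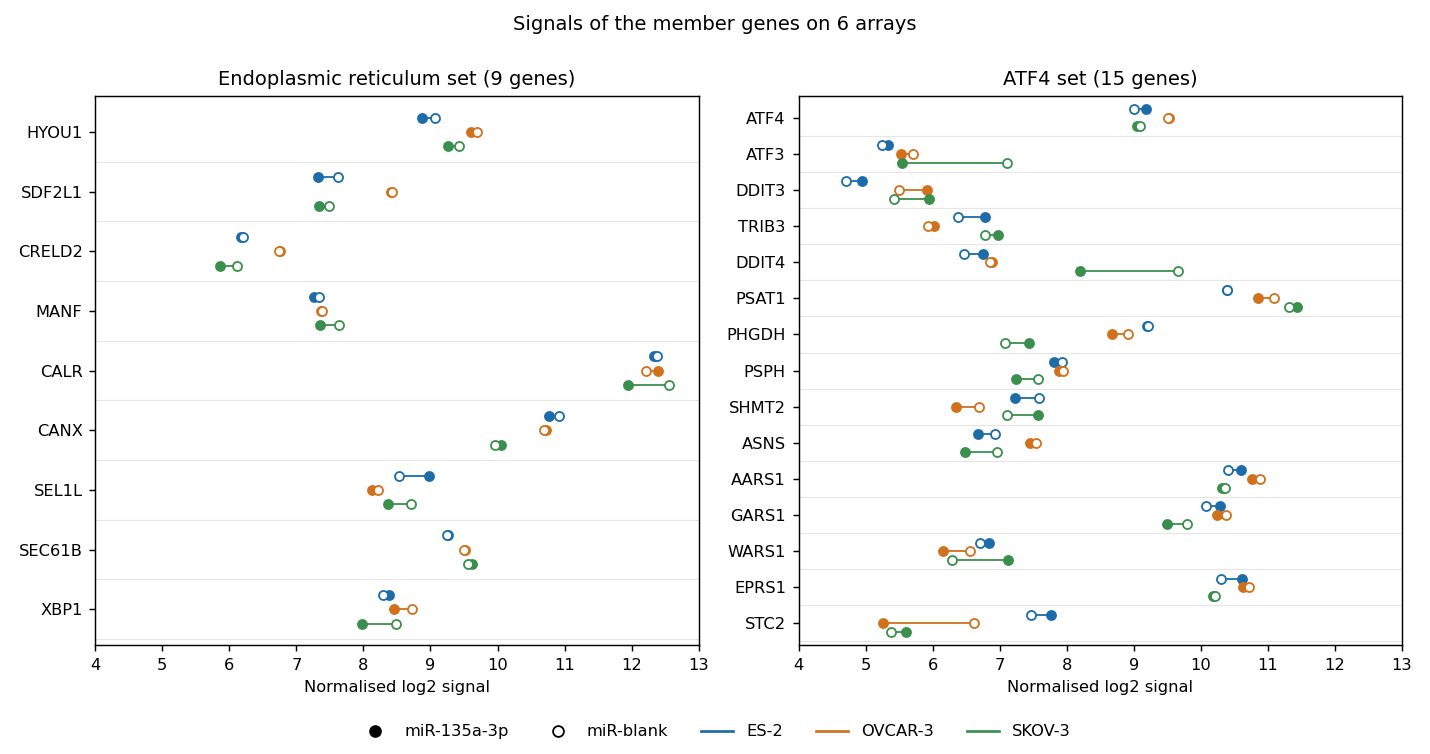
Normalised log2 signal (x axis) of the 24 genes on the 6 arrays, with filled points for miR-135a-3p and open points for miR-blank, joined within each of the 3 lines. The longest joins are ATF3 and DDIT4 in SKOV-3 and STC2 in OVCAR-3; levels of different genes are not comparable, since they come from different probes.

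After miR-135a-3p, 0 of 24 genes passed limma at an adjusted p under 0.05, where 0.0116% of all genes tested did. All 24 had an adjusted p that rounds to 0.999 or 1. At an unadjusted p under 0.05 there was 1 of the 24, DDIT3, against 2.91% of all genes. The limma 95% intervals of the mean difference reached 0.31 to 0.44 to either side of it in the ER set (median 0.33) and 0.32 to 0.79 in the ATF4 set (median 0.35). These intervals are not adjusted for the number of genes tested, so the adjusted test asks for larger differences. The ER set had a median mean difference of −0.12, the ATF4 set −0.04 and all genes −0.01.

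In SKOV-3 7 of 9 ER genes read lower after miR-135a-3p, where 47.8% of all genes did, and the median difference of the set was −0.24, against 0.02 for all genes. In ES-2 6 of 9 read lower (51.1% of all genes), with a median of −0.05, and in OVCAR-3 5 of 9 (59.4% of all genes), with a median of −0.01. The widest differences of the set were 0.44 in ES-2 (SEL1L), −0.27 in OVCAR-3 (XBP1) and −0.61 in SKOV-3 (CALR), so that 0 of 9 genes reached 1.5-fold in ES-2 or OVCAR-3, where 3.46% and 3.92% of all genes did. Lower in all 3 lines were 3 of 9 genes, HYOU1, SDF2L1 and MANF, against 13.4% of all genes. Without SKOV-3 the median of the set was −0.04.

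HYOU1, a large HSP70-like chaperone of the ER lumen that exchanges nucleotide on BiP, read 8.87 for ES-2, 9.60 for OVCAR-3 and 9.27 for SKOV-3 after miR-135a-3p, against 9.07, 9.69 and 9.43 after miR-blank. It was the most even of the lower genes, with a mean difference of −0.15 ± 0.05 (SD, n = 3) and an interval of −0.46 to 0.16. A second, dimmer HYOU1 probe set gave differences of −0.15, −0.27 and 0.28, so the probe sets disagreed in sign in SKOV-3. SDF2L1, a partner of BiP and its DnaJ cofactors, read 7.32 (ES-2), 8.41 (OVCAR-3) and 7.34 (SKOV-3) after miR-135a-3p, against 7.62, 8.43 and 7.49 after miR-blank. Its mean difference was −0.16 ± 0.14 (SD, n = 3), and both OVCAR-3 arrays lay above the 4 others.

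CRELD2, an ER-resident protein with disulfide-related functions, read 6.17, 6.76 and 5.87 after miR-135a-3p in the same order of lines, against 6.20, 6.74 and 6.11 after miR-blank. MANF, which binds BiP in the ER and can be secreted, read 7.26, 7.37 and 7.36 after miR-135a-3p, against 7.34, 7.38 and 7.64 after miR-blank. For both the difference was widest in SKOV-3, at −0.24 for CRELD2 and −0.28 for MANF.

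The lectin chaperones hold newly made glycoproteins in their folding cycle. CALR, calreticulin, the soluble one, read 12.33 (ES-2), 12.39 (OVCAR-3) and 11.95 (SKOV-3) after miR-135a-3p, against 12.37, 12.21 and 12.56 after miR-blank. Its SKOV-3 difference of −0.61 was the 1 of 9 in the ER set past 1.5-fold in that line, where 15.4% of all genes passed it in either direction, and without SKOV-3 the mean of −0.16 ± 0.41 (SD, n = 3) became 0.07. CANX, calnexin, the membrane-bound one, read 10.77, 10.73 and 10.06 after miR-135a-3p, against 10.92, 10.69 and 9.96 after miR-blank, and its mean difference was −0.01 ± 0.13 (SD, n = 3) and −0.06 without SKOV-3.

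XBP1, the transcription factor whose mRNA IRE1 splices, read 8.39 (ES-2), 8.45 (OVCAR-3) and 7.98 (SKOV-3) after miR-135a-3p, against 8.29, 8.73 and 8.49 after miR-blank. Its differences of 0.10, −0.27 and −0.51 gave a mean of −0.23 ± 0.30 (SD, n = 3), with an interval of −0.62 to 0.16, and −0.09 without SKOV-3. SEL1L, the scaffold of the HRD1 ubiquitin ligase in ER-associated degradation, read 8.97, 8.12 and 8.36 after miR-135a-3p, against 8.53, 8.22 and 8.71 after miR-blank. It differed by 0.44 in ES-2 and by −0.35 in SKOV-3. SEC61B, a subunit of the translocon through which secretory proteins enter the ER, lay between 9.24 and 9.63 on all arrays, with a mean difference of 0.03 ± 0.02 (SD, n = 3) and 0.02 without SKOV-3.

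The 6 ER genes with a printed ERSE or ERSE-II had SKOV-3 differences of −0.61 to 0.09 (median −0.20), and the 3 without, MANF, SEL1L and SEC61B, −0.35 to 0.06 (median −0.28). The ranges overlapped in SKOV-3, and they did so in ES-2 (−0.30 to 0.10 with, −0.08 to 0.44 without) and OVCAR-3 (−0.27 to 0.18 with, −0.10 to 0.02 without).

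**Figure D2:**
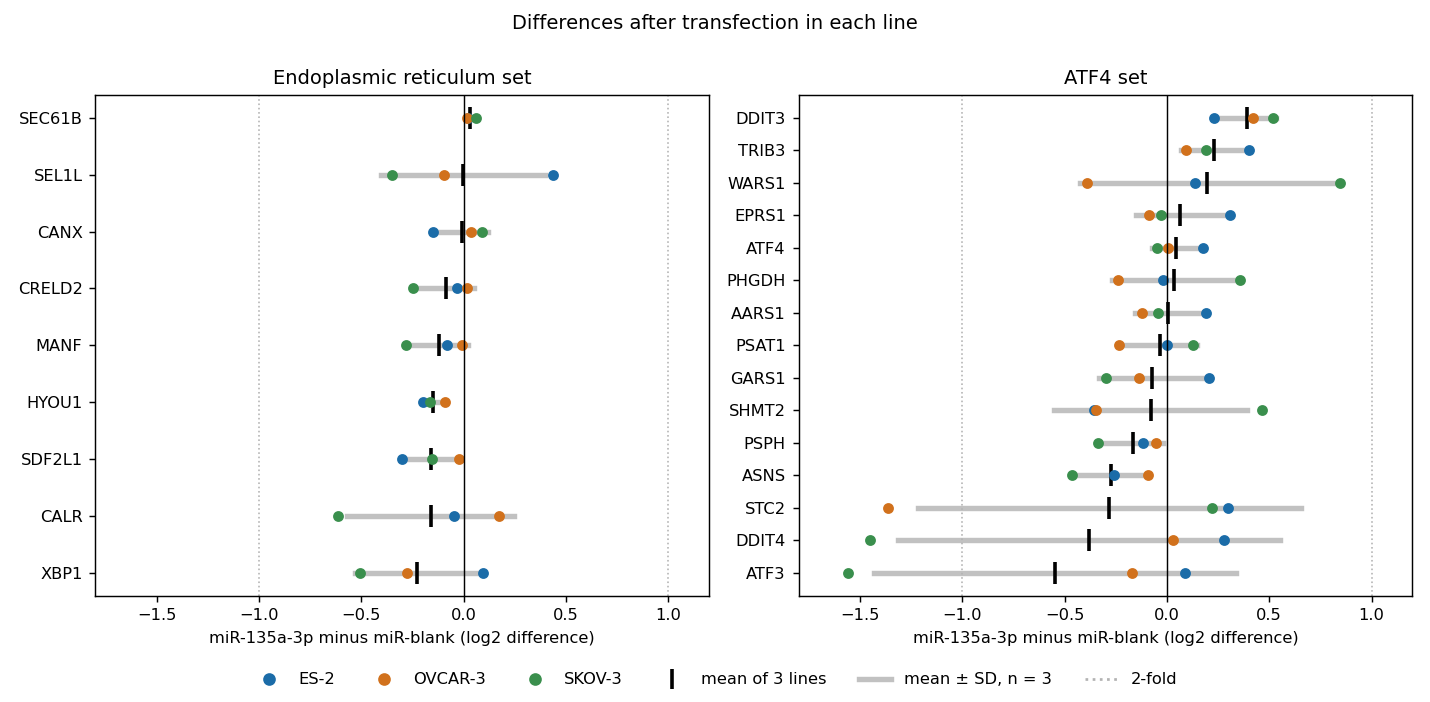
Log2 difference, miR-135a-3p minus miR-blank (x axis), of each gene in each of the 3 lines (points), with the mean and SD over the 3 lines (tick and grey bar) and dotted lines at 2-fold. The ER genes stay within 0.61 of 0, and the 3 points past 2-fold, all low, are ATF3 and DDIT4 in SKOV-3 and STC2 in OVCAR-3.

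The genes of the ATF4 set differed in both directions. The SD over its genes was 0.22 (ES-2), 0.38 (OVCAR-3) and 0.67 (SKOV-3), against 0.21, 0.12 and 0.23 over the ER genes. In ES-2 10 of 15 genes read higher (48.8% of all genes), with a median of 0.18, in OVCAR-3 4 of 15 (40.5% of all genes), with a median of −0.12, and in SKOV-3 7 of 15 (52.2% of all genes), with a median of −0.03. Past 2-fold, all lower, were 2 of 15 in SKOV-3, ATF3 and DDIT4, where 1.66% of all genes were 2-fold lower, and 1 of 15 in OVCAR-3, STC2, against 0.383% of all genes. No ATF4 gene reached 2-fold in ES-2, where 0.673% of all genes did in either direction. With 1 array per line and transfection these have no replicate check.

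**Figure D3:**
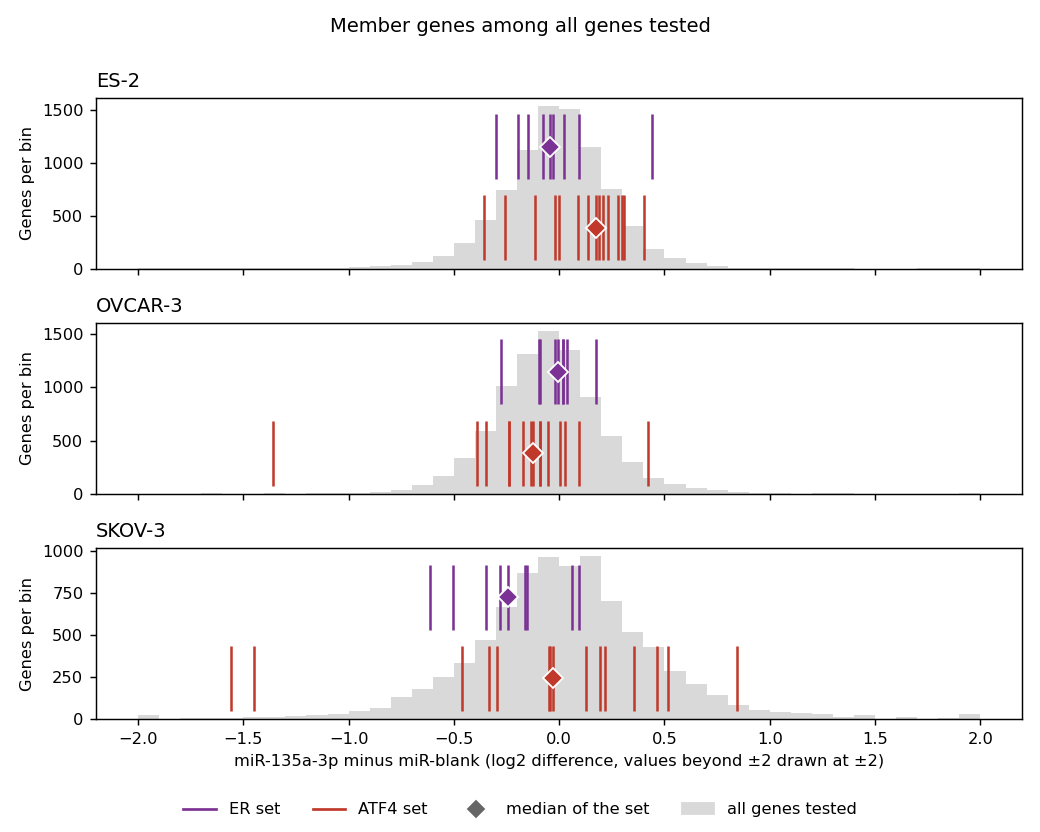
Log2 differences, miR-135a-3p minus miR-blank (x axis), with a panel for each line: grey bars count all 8620 genes tested in bins of the difference, purple and red lines are the ER and ATF4 genes, and diamonds are the set medians. The set medians lie within the bulk of all genes in each panel, the farthest from 0 at −0.24 (ER set, SKOV-3) and 0.18 (ATF4 set, ES-2).

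Among the transcription factors, ATF4 itself read 9.18 for ES-2, 9.52 for OVCAR-3 and 9.04 for SKOV-3 after miR-135a-3p, against 9.0, 9.51 and 9.09 after miR-blank. The difference was 0.04 ± 0.12 (SD, n = 3), with an interval of −0.28 to 0.37, and 0.09 without SKOV-3. DDIT3, which encodes the pro-apoptotic factor CHOP, read 4.94, 5.91 and 5.95 after miR-135a-3p, against 4.71, 5.49 and 5.43 after miR-blank. It was higher in 3 of 3 lines, by 0.23, 0.42 and 0.52, with a mean of 0.39 ± 0.15 (SD, n = 3), an interval of 0.06 to 0.72 and an unadjusted limma p of 0.0269, but an adjusted p of 0.999. Its ES-2 signals were the lowest of the 24 genes on any array. With no detection calls, its signals were not shown to be above background in any of the 3 lines.

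ATF3, a factor of the ATF/CREB family that ATF4 induces and that also belongs to the early response genes, read 5.33 (ES-2), 5.53 (OVCAR-3) and 5.54 (SKOV-3) after miR-135a-3p, against 5.24, 5.70 and 7.10 after miR-blank. The SKOV-3 miR-blank array alone stood high, and the other 5 lay between 5.24 and 5.70, low signals not shown to be above background. The SKOV-3 difference was −1.56, and the mean of −0.55 ± 0.89 (SD, n = 3) became −0.04 without SKOV-3.

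DDIT4, an inhibitor of mTORC1 that hypoxia and glucocorticoids also induce, read 6.75 (ES-2), 6.89 (OVCAR-3) and 8.20 (SKOV-3) after miR-135a-3p, against 6.47, 6.86 and 9.65 after miR-blank. Both SKOV-3 arrays lay above the 4 others, and within SKOV-3 the difference was −1.45. The mean of −0.38 ± 0.93 (SD, n = 3) became 0.16 without SKOV-3. TRIB3, a pseudokinase that ATF4 and CHOP induce and that restrains them, read 6.78, 6.02 and 6.97 after miR-135a-3p, against 6.37, 5.93 and 6.78 after miR-blank. TRIB3 and DDIT3 were the 2 of 15 genes higher in all 3 lines (9.54% of all genes), and TRIB3 had a mean of 0.23 ± 0.16 (SD, n = 3).

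STC2, a secreted glycoprotein hormone, read 7.76 (ES-2), 5.25 (OVCAR-3) and 5.60 (SKOV-3) after miR-135a-3p, against 7.46, 6.61 and 5.38 after miR-blank. It differed by −1.36 in OVCAR-3 and by 0.30 and 0.22 in ES-2 and SKOV-3. Its mean was −0.28 ± 0.94 (SD, n = 3), 0.26 without OVCAR-3 and −0.53 without SKOV-3.

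Genes of serine and glycine synthesis, which feed one-carbon metabolism, read lower in ES-2 and OVCAR-3, all 4 of 4 in each, while 3 of 4 read higher in SKOV-3, though PSAT1 differed by less than 0.001 in ES-2. The background for these counts was 51.1%, 59.4% and 52.2% of all genes. PHGDH, the first step from a glycolytic intermediate, read 9.20 (ES-2), 8.67 (OVCAR-3) and 7.43 (SKOV-3) after miR-135a-3p, against 9.22, 8.91 and 7.07 after miR-blank. PSAT1, the second step, read 10.39, 10.85 and 11.44 after miR-135a-3p, against 10.39, 11.09 and 11.31 after miR-blank. In both genes the groups of the transfection overlapped fully and the lines kept apart.

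SHMT2, the mitochondrial enzyme that splits serine into glycine and a one-carbon unit, differed by −0.36, −0.35 and 0.46, and its mean of −0.08 ± 0.47 (SD, n = 3) was −0.35 without SKOV-3. PSPH, the last step of serine synthesis, differed by −0.12, −0.05 and −0.33. ASNS, asparagine synthetase, a classical ATF4 target, read 6.67, 7.46 and 6.49 after miR-135a-3p, against 6.93, 7.55 and 6.95 after miR-blank. PSPH and ASNS were the 2 of 15 genes lower in all 3 lines (13.4% of all genes), with means of −0.17 ± 0.15 and −0.27 ± 0.19 (SD, n = 3 each), or −0.08 and −0.18 without SKOV-3.

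Of the listed aminoacyl-tRNA synthetases, which charge tRNAs with their amino acids, 4 of 4 read higher in ES-2, by 0.13 to 0.31 (48.8% of all genes), and 4 of 4 lower in OVCAR-3, at −0.39 to −0.09 (59.4% of all genes). In SKOV-3 3 of 4 read lower, at −0.30 to −0.03 (47.8% of all genes), and WARS1, for tryptophan, stood out at 0.84. WARS1 read 6.84 (ES-2), 6.16 (OVCAR-3) and 7.13 (SKOV-3) after miR-135a-3p, against 6.70, 6.55 and 6.28 after miR-blank. It was the 1 of 15 ATF4 genes past 1.5-fold higher in SKOV-3, where 8.35% of all genes were. A second, dim WARS1 probe set near the array median gave −0.09, 0.07 and 0.19, opposite in sign in ES-2 and OVCAR-3. AARS1 for alanine, GARS1 for glycine and EPRS1 for glutamate and proline had means of 0.01 ± 0.16, −0.08 ± 0.26 and 0.06 ± 0.21 (SD, n = 3 each), or 0.03, 0.04 and 0.11 without SKOV-3. The 8 other synthetases tested went both ways: 5 of 8 read higher in ES-2, 6 of 8 lower in OVCAR-3 and 7 of 8 higher in SKOV-3, with TARS1, for threonine, at −0.37, 0.08 and 0.39.

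The wider pathway gave 0 calls as well. Of 19 sensors and regulators of the response, 9 were tested, with a median mean difference of −0.05. CREB3L2, an ER-anchored transcription factor related to ATF6, read 9.25 (ES-2), 7.64 (OVCAR-3) and 6.14 (SKOV-3) after miR-135a-3p, against 9.22, 7.59 and 7.55 after miR-blank, a mean of −0.44 ± 0.84 (SD, n = 3) that became 0.04 without SKOV-3. EIF2AK1, the haem-regulated eIF2 alpha kinase, had −0.18 ± 0.41 (SD, n = 3), and 0.06 without SKOV-3. EIF2AK2, the kinase of double-stranded RNA, had 0.12 ± 0.11 (SD, n = 3). Of other ER folding genes 9 of 18 were tested, with a median of 0.06. Higher after miR-135a-3p were 5 of 9 in ES-2 (48.8% of all genes) and 8 of 9 in OVCAR-3 (40.5% of all genes). In SKOV-3 6 of 9 read higher (52.2% of all genes). In the listed ER set 6, 5 and 7 of 9 read lower in the 3 lines. ERO1A, the oxidase that recharges protein disulfide isomerases, was higher in 3 of 3 lines, at 0.25 ± 0.07 (SD, n = 3).

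Other genes of degradation and translocation (11 of 24 tested) had a median of 0.00, other ATF4 targets (18 of 29 tested) 0.01, and cytosolic chaperones (7 of 12 tested) 0.05. Among these ATF4 targets PYCR1, of proline synthesis, and PCK2, mitochondrial PEP carboxykinase, had −0.26 ± 0.17 and −0.17 ± 0.07 (SD, n = 3 each), lower in 3 of 3 lines. The degradation gene DERL1 had 0.18 ± 0.46 (SD, n = 3), and −0.08 without SKOV-3. HSPH1, a cytosolic HSP70 cochaperone, had 1.01 in SKOV-3, against −0.12 in ES-2 and 0.01 in OVCAR-3. Each gene named in the wider pathway had a limma adjusted p that rounds to 0.999 or 1.

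The lines were then compared over both transfections, with limma, and a gene was called where the adjusted p was under 0.05 and the difference 2-fold or more. The 2 arrays of a line are not stated to be separate cultures. These p-values measure the scatter of the arrays about a transfection effect common to the lines, pooled over the lines. A transfection difference in 1 line thus enters the error of all 3 pairs. Each line enters a pair with both others, so the 3 pairs share arrays. Low signals were not shown to be above background. This holds for DDIT3 in all 3 lines, ATF3 in ES-2 and OVCAR-3, and STC2 and CREB3L1 in OVCAR-3 and SKOV-3. It also holds for ERO1B in ES-2 and SKOV-3, VLDLR in OVCAR-3 and CTH in SKOV-3. A difference between such a signal and a higher one may understate the true one. In the ER set 0 of 9 genes were called in any pair, where 16.5% of all genes were called for ES-2 against OVCAR-3, 12.1% for ES-2 against SKOV-3 and 14.6% for OVCAR-3 against SKOV-3. In the ATF4 set 3 of 15 genes were called in at least 1 pair, DDIT4, PHGDH and STC2, against 25.2% of all genes.

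Smaller differences passed the p alone in the ER set. HYOU1, SDF2L1 and CRELD2 were lower in ES-2 than OVCAR-3, at −0.67 (adjusted p 0.0218), −0.94 (0.00755) and −0.56 (0.0469). SDF2L1 and CRELD2 were higher in OVCAR-3 than SKOV-3, by 1.0 (adjusted p 0.00706; just under 2-fold) and 0.76 (0.019). CANX was higher in ES-2 than SKOV-3, by 0.83 (adjusted p 0.0157), and in OVCAR-3 than SKOV-3, by 0.70 (0.0244). That is 3, 1 and 3 of 9 genes in the 3 pairs of lines, in the same order as above, where 29.2%, 23% and 25.6% of all genes passed. CALR had line means of 12.35, 12.30 and 12.26 and MANF 7.30, 7.38 and 7.50, the narrowest ranges of the set. HYOU1 had 8.97, 9.65 and 9.35 on the probe set tested. Its second, dimmer probe set, not tested, had 5.61, 6.76 and 5.68, with OVCAR-3 further above the other lines. Its low signals were not shown to be above background.

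DDIT4 had line means of 6.61 (ES-2), 6.88 (OVCAR-3) and 8.93 (SKOV-3). It was 4.99-fold lower in ES-2 than SKOV-3 (log2 −2.32, SE 0.40, adjusted p 0.00989) and 4.15-fold lower in OVCAR-3 than SKOV-3 (−2.05, SE 0.40, adjusted p 0.0125). ES-2 and OVCAR-3, the third pair, differed by −0.27 (SE 0.40, limma adjusted p 0.671), with both ES-2 arrays below both OVCAR-3 arrays. That SE is shared by the 3 pairs, so the SKOV-3 transfection difference of −1.45 enters it. Without an OVCAR-3 array the second difference was not called, at −2.36 (adjusted p 0.0639) without miR-135a-3p and −1.74 (0.123) without miR-blank. The first stayed called without any 1 array of the 2 lines, but was −1.52 without the SKOV-3 miR-blank array, where the second was −1.25 (adjusted p 0.00163).

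PHGDH followed the opposite order, with line means of 9.21 (ES-2), 8.79 (OVCAR-3) and 7.25 (SKOV-3). It was 3.88-fold higher in ES-2 than SKOV-3 (log2 1.96, SE 0.20, adjusted p 0.00134) and 2.91-fold higher in OVCAR-3 than SKOV-3 (1.54, SE 0.20, adjusted p 0.00251). With 1 array of the 2 lines compared left out, the first ran from 1.71 to 2.20 and the second from 1.30 to 1.78. PSAT1, the next enzyme of the same pathway, did not follow it: its line means were 10.39, 10.97 and 11.37, lower in ES-2 than SKOV-3 at −0.98 (adjusted p 0.0107), just short of 2-fold. Under each of 3 further normalizations this PSAT1 difference was called. PSPH had 7.87, 7.92 and 7.41, and SHMT2 was higher in ES-2 than OVCAR-3 by 0.89 (adjusted p 0.0361).

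STC2 had line means of 7.61, 5.93 and 5.49. It was 3.20-fold higher in ES-2 than OVCAR-3 (log2 1.68, SE 0.40, adjusted p 0.0231) and 4.35-fold higher in ES-2 than SKOV-3 (2.12, SE 0.40, adjusted p 0.0135), both against signals not shown to be above background. The OVCAR-3 mean joins 5.25 after miR-135a-3p and 6.61 after miR-blank. The call for ES-2 against OVCAR-3 was lost without the ES-2 miR-135a-3p array (1.24, adjusted p 0.0942) and without the OVCAR-3 miR-135a-3p array (0.87, adjusted p 0.0884).

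**Figure D4:**
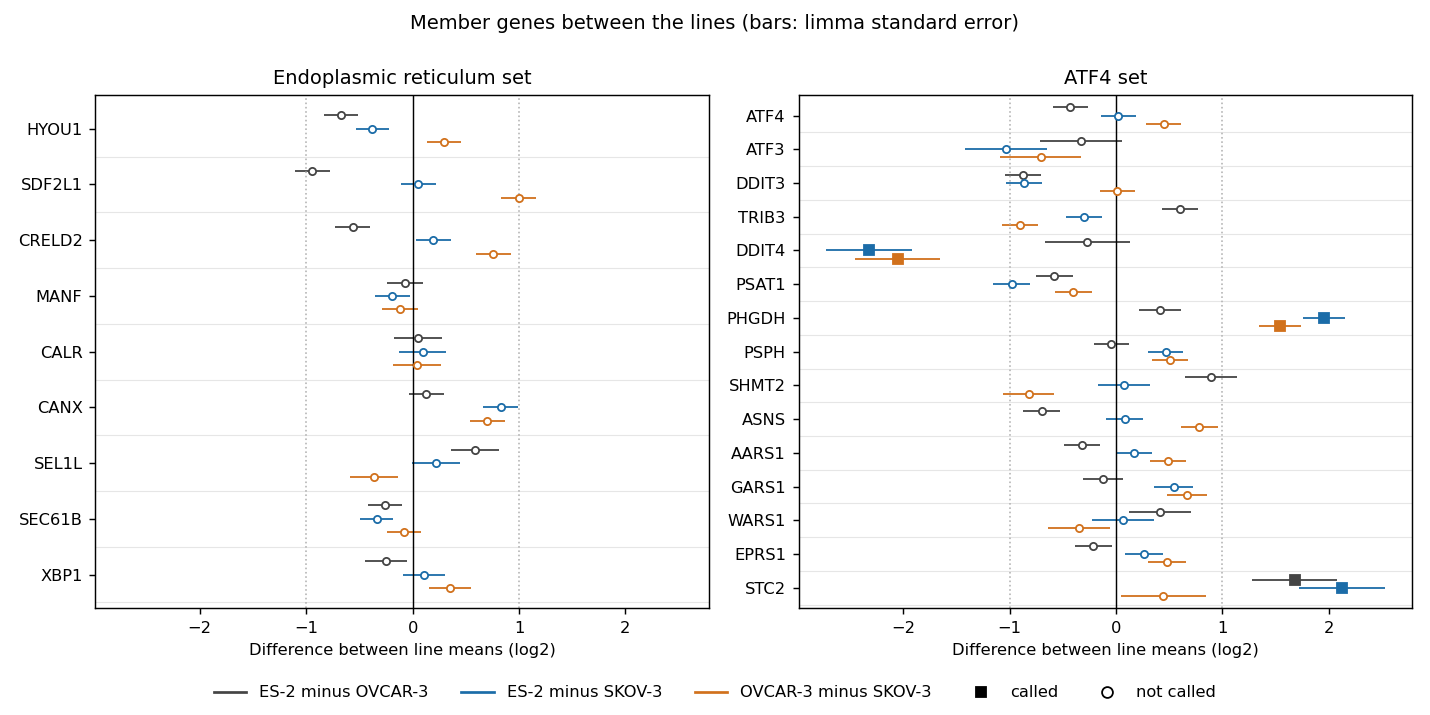
Differences between line means over both transfections (x axis, log2) for the 3 pairs of lines, with limma standard errors; filled squares are called (adjusted p under 0.05, 2-fold or more), open circles are not, and dotted lines mark 2-fold. Filled squares appear for DDIT4, PHGDH and STC2, and none appears in the ER set.

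Of the ATF4 factors, DDIT3 was lower in ES-2 than OVCAR-3 (−0.88, adjusted p 0.0102) and than SKOV-3 (−0.86, adjusted p 0.0146). Its line means were 4.83, 5.70 and 5.69, none of them shown to be above background. TRIB3 was lower in OVCAR-3 than SKOV-3 (−0.90, adjusted p 0.0108) and higher in ES-2 than OVCAR-3 (0.60, adjusted p 0.041). ASNS was highest in OVCAR-3, lower in ES-2 at −0.70 (adjusted p 0.0261) and above SKOV-3 by 0.78 (adjusted p 0.0197). Its ES-2 and SKOV-3 means differed by 0.08 (limma adjusted p 0.779). ATF4 had line means of 9.09, 9.52 and 9.07, and ATF3 5.29, 5.61 and 6.32, without a pair past the threshold with all 6 arrays. The SKOV-3 mean of ATF3 joins 5.54 after miR-135a-3p and 7.10 after miR-blank. Whether ATF3 was called against SKOV-3 depended on which array was left out. The tRNA synthetases AARS1, GARS1 and EPRS1 had ranges of line means of 0.49, 0.67 and 0.48, and GARS1 was higher in OVCAR-3 than SKOV-3 (adjusted p 0.0437).

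The wider pathway was compared between lines in the same way. Of 9 sensors and regulators, 3 were called in at least 1 pair of lines, and all 3 are ER-anchored factors of the CREB3 family. CREB3L1 had line means of 7.20 (ES-2), 4.91 (OVCAR-3) and 4.78 (SKOV-3), CREB3L2 9.24, 7.61 and 6.85, and CREB3 7.90, 8.26 and 9.88. ERO1B, the oxidase paralog of ERO1A known from secretory tissues, had 5.05, 10.93 and 5.57, so that ES-2 lay below OVCAR-3 at −5.88 on the log2 scale (adjusted p 2.58e-05), with the ES-2 signal not shown to be above background. Of 18 other ATF4 targets, 7 were called in at least 1 pair, among them VLDLR, a lipoprotein receptor (7.01, 3.47 and 6.65), CTH, which makes cysteine (6.32, 6.90 and 4.72), and the factor ATF5 (6.09, 7.92 and 6.86). The 3 other wider lists had fewer: 1 of 9 other ER folding genes (ERO1B), 1 of 11 genes of degradation and translocation and 1 of 7 cytosolic chaperones. The background for each of these counts was 25.2% of all genes.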

How the data were processed

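The authors deposited 1 table of log2 signals for 53617 probe sets on 6 arrays. Per the submitters' processing notes the tools were Transcriptome Analysis Console 3.0, Expression Console 1.4 and RMA, whose roles are not given there. The scale was read from the values as log2. RMA makes the arrays' distributions equal, so a shift of most genes would not show, and there are no detection calls. Precision is limited by the number of arrays.

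The 16098 probe sets with 1 symbol in the platform annotation were named through RefSeq gene identifiers (16098 matched; 37519 probe sets unnamed here, 0 with several symbols). The probe set with the highest mean stood for each gene, and genes with a mean of at least 5 were tested. A single limma 3.58.1 model (R 4.3.3) gave both comparisons, with line and transfection as terms. Its tests were two-sided, with Benjamini-Hochberg over all 8620 genes. The model was run on simulated data with the same spread in every line, which does not cover the wider spread of the SKOV-3 pair. The line pairs the arrays because both come from the same cell line. The 2 arrays of a line deviated together from the group means, with r of 0.90 (ES-2), 0.91 (OVCAR-3) and 0.76 (SKOV-3). Differences between the lines alone raise this r, so it cannot show whether 2 arrays share a culture. Of the 24 genes, 8 have pseudogenes named after them (XBP1, ATF4, PSAT1, PSPH, ASNS, AARS1, GARS1 and WARS1), whose transcripts the probes may share.

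The genes and lists were chosen with earlier results of these data known. All 24 are described. From each wider list, up to 3 genes by absolute mean difference and up to 3 by range of line means were eligible to be named. Alternatives were the filter, 3 further normalizations, the mean over probe sets, an intensity trend, a fit without a block, and each line or array left out.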

Additional observations from a re-analysis of the deposited data

Results flagged for a closer look

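GDF15, a stress-induced secreted factor and an ATF4 target outside the list, passed 1.5-fold upwards in ES-2 and OVCAR-3 and downwards in SKOV-3. It read 6.13 (ES-2), 7.97 (OVCAR-3) and 6.89 (SKOV-3) after miR-135a-3p, against 5.51, 7.31 and 8.09 after miR-blank, which gave differences of 0.62, 0.66 and −1.20. It was named after its values were seen. Whether the effect of the transfection differs between lines was not tested, because a line holds a single array of each transfection. Over both transfections GDF15 was lower in ES-2 than OVCAR-3 (−1.82, limma adjusted p 0.0252) and than SKOV-3 (−1.67, limma adjusted p 0.0408).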

How the results depend on the processing

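With the line left out as a block (no replicate block), limma called 1 gene after transfection, MIR135A1, as with the pairing, so the block changed no call of the transfection. Leaving out 1 line gave 1 to 4 called genes, with 4 without SKOV-3, and 0 of the 24 genes described were called under any alternative. The ER median ran from −0.18 to −0.04 and the ATF4 median from −0.06 to 0.06 when a line was left out, and the count of 3 genes past 2-fold within a line held under 3 further normalizations and with the mean over probe sets. Mean differences changed sign in 5 of 24 genes without ES-2, in 4 without OVCAR-3 and in 6 without SKOV-3, and in at most 2 under a further normalization. Leaving out 1 array, the calls for ES-2 against OVCAR-3 ran from 0 to 1 in the ER set (SDF2L1) and from 0 to 1 in the ATF4 set. Those for OVCAR-3 against SKOV-3 ran from 0 to 1 in the ER set (SDF2L1) and from 1 to 3 in the ATF4 set, and those for ES-2 against SKOV-3 from 0 to 0 and from 3 to 4. The last count was 4, with PSAT1 added, under each of 3 further normalizations. A lone array was assumed to vary like the others. Without detection calls, low signals, such as those of DDIT3, VLDLR in OVCAR-3 and EPCAM, cannot be told from background.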
